A study of Mus musculus with 6 samples.

Results

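Decapping enzymes, 5′-to-3′ exonucleases and the deadenylases PAN2-PAN3 and PARN take an mRNA apart from its 2 ends. The 10 genes Dcp1a, Dcp1b, Dcp2, Edc3, Edc4, Xrn1, Xrn2, Pan2, Pan3 and Parn were taken by symbol from a table of 23235 genes, and all 10 were found. Each also passed the filter on low values (FPKM above 1 in at least 1 sample), which 12523 genes passed. FPKM counts sequenced fragments per kilobase of transcript, scaled to the mapped total, so that levels can be set side by side between genes. In Pabpn1-null growing oocytes the transcript of Pan3 fell to 34.6% of its level in WT oocytes, while those of Parn, Pan2, Xrn2 and Edc3 rose 1.49- to 1.98-fold in the values as deposited. The fall of Pan3 passed the test under every scaling tried. The rises did not pass it when the samples were rescaled to the scaled group means of the study.

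As background, a poly(A) tail is first trimmed by PAN2-PAN3, in which PAN2 is the nuclease and PAN3 the subunit that recruits it to tails bound by cytoplasmic poly(A)-binding protein, and then removed by CCR4-NOT. The decapping enzyme DCP2, with its activator DCP1 and the enhancers EDC3 and EDC4, then removes the cap, and XRN1 degrades the body of the message in the cytoplasm. XRN2 does the same work in the nucleus, where it also follows RNA polymerase II past the cleavage site and ends transcription, and PARN is a deadenylase that binds the cap and trims the tails of nuclear non-coding RNAs. PABPN1, the protein removed here, binds the growing tail in the nucleus and makes polyadenylation processive. Growing oocytes store most of the mRNA they make, so that decay is held back until meiotic maturation.

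The study compared growing oocytes of WT mice with Pabpn1-null oocytes of Pabpn1fl/fl;Gdf9-Cre mice, labelled C57BL/6 (C57BL/6J in the methods), to ask how the loss of PABPN1 alters the transcriptome. Each genotype had 3 samples of 10 pooled oocytes. Cre was driven by the Gdf9 promoter, which acts in oocytes from an early follicle stage, so that the floxed Pabpn1 gene is lost in the germ cell and not in the follicle around it. Per the methods, WT and knockout mice were littermates. The age of the mice and whether the WT mice carried floxed alleles were not given for these samples. The samples are called biological replicates, without a statement that each came from a separate mouse, so a p-value here reflects the spread among the samples at hand. RNA was copied with oligo-dT primers (Smart-seq2), so that a level stands for RNA with a poly(A) tail. A lower level can mean less RNA or RNA captured less well through its tail, and these cannot be told apart.

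Pabpn1 itself was at 21.9, 33.4 and 21.8 FPKM in the WT samples and at 0.595, 0.878 and 1.37 FPKM among the Pabpn1-null samples, which fits the labels of all 6 samples. The samples summed to 597103 to 739244 FPKM each. From the size of 1 fragment in genes of low level, the depth was estimated at 8170000 to 13460000 fragments per sample. The study lists a larger number of total reads for every sample, and the difference was not examined. All 12 oocyte markers passed the filter, and their summed level ranged from 17440 to 20902 FPKM in WT samples and from 19303 to 21519 FPKM in Pabpn1-null samples. On the deposited scale the near-equal sums held shifts in both directions. Of the 12 markers, 7 were higher (up to 2.69-fold for Ddx4) and 2 lower (Figla at 0.534 and Dppa3 at 0.639 of the WT level). The study's scaled group means correspond to factors of 1, 1.42 and 1.31 for the WT samples and 0.833 for each Pabpn1-null sample. All marker sums and calls here are as deposited and need not hold on that scale. The 10 granulosa markers summed to between 31.7 and 38.5 FPKM in WT samples and to between 31.3 and 43.8 FPKM in Pabpn1-null samples, with 1 higher (Inha) and 1 lower (Cyp19a1). These sums overlapped, and the number of follicle cells and the RNA per cell cannot be told apart in such pooled samples. Those of theca and stroma, endothelium and blood summed to 1.06 to 12.1 FPKM, with Star of theca cells higher (0.273 to 1.15 FPKM between the means), and Cdh5, Hbb-b1, Hba-a1 and Cd3e were listed at 0 throughout. The part of these traces in the results was not tested.

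Of the 10 decay factors, 4 were higher in Pabpn1-null oocytes (Parn, Pan2, Edc3 and Xrn2), 1 was lower (Pan3) and 5 did not pass the test (limma on log2(FPKM + 1), Benjamini-Hochberg adjusted p under 0.05 over all 12523 genes). Over all genes 27.9% were higher, 20.2% lower and 48.1% called in either direction, so that 5 of 10 called is a share near this background. The genotypes did not overlap for 6 of the 10, against 58.0% of all genes. The median log2 change of the 10 was 0.29, beside 0.09 over all genes tested.

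**Figure D1:**
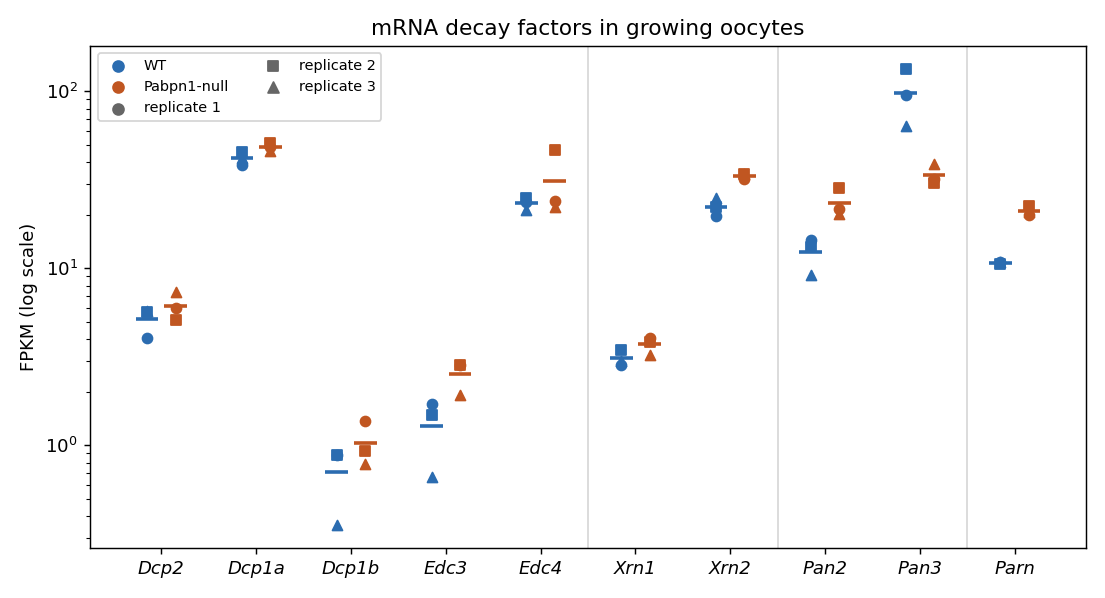
Transcript level of each decay factor in every sample, in FPKM on a log scale, with blue for WT, orange for Pabpn1-null, marker shape for the replicate number and a line at each genotype's mean (n = 3). Levels are on the deposited scale. Pan3 is the only one of the 10 whose Pabpn1-null samples (30.3 to 39.0) all lie below its WT samples (63.9 to 134). On this scale Parn keeps to 10.6 to 10.9 in WT and 20.1 to 22.5 in Pabpn1-null oocytes.

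The ends of the 4 transcripts that moved most clearly are shown because the tail that PABPN1 coats is added there and because the libraries were primed from it. The last 30 bases of each transcript are given 5′ to 3′ on the strand of the gene, with the polyadenylation hexamer (AATAAA or ATTAAA) in capitals, from the GENCODE vM1 transcripts of mm9. For each gene, here and in the counts below, the transcript with the longest coding sequence was taken. Pan3 has 4 coding transcripts, Edc3 3 and Pan2 2, and the ends of the others were not searched. They lie in the 3′ untranslated region of the last exon, at chr5:148360048-148360077 (Pan3, plus strand), chr16:13538057-13538086 (Parn, minus strand), chr10:127758374-127758403 (Pan2, plus strand) and chr2:146903707-146903736 (Xrn2, plus strand).
Pan3: tttAATAAAgaattgcagaAATAAActtgt
Parn: tcaaaaagctgaaATTAAAgaaaatttcct
Pan2: tttataaAATAAAagtatttttatctcatt
Xrn2: aaaAATAAAAATAAAgctaaactttaaaaa
Pan3, which fell, and Pan2 and Xrn2, which rose, carry AATAAA, and Parn, which also rose, carries ATTAAA only. Both hexamers were searched on the sense strand in the last 40 bases, and overlapping matches were allowed. One or the other was found in 9 of the 10 members, Edc3 being the exception, and in 75.1% of 11240 transcripts of genes tested, 60.4% having AATAAA. A match describes these letters and not the site that oocytes use. The 10 members had a median transcript length of 4704 bases and a median GC content of 48.4%, beside 2719 bases and 50.1% over these 11240 transcripts.

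The subunit transcripts of the PAN2-PAN3 deadenylase changed in opposite directions, but the rise of Pan2 was not called under every scaling. Pan3, the recruiting subunit (chromosome 5, 148242156 to 148360077, plus strand of mm9), was at 95.1, 134 and 63.9 FPKM in the WT samples and at 31.98, 30.3 and 39.0 FPKM among the Pabpn1-null samples. Every Pabpn1-null sample lay below every WT sample, and the WT samples spread far more widely (SD 35.2 FPKM, against 4.61 FPKM in Pabpn1-null oocytes). The log2 change was -1.45 with a standard error of 0.24 (limma, n = 3 per genotype, adjusted p = 0.00109). Leaving out 1 sample at a time gave changes from -1.72 to -1.19, all past the threshold.

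Pan2, the catalytic subunit (chromosome 10, 127740391 to 127758403, plus strand), was at 14.5, 13.2 and 9.17 FPKM in the WT samples and at 21.8, 28.4 and 20.3 FPKM among the Pabpn1-null samples. The genotypes did not overlap, with WT replicate 3 the lowest and Pabpn1-null replicate 2 the highest. The mean rose 1.91-fold, a log2 change of 0.89 with a standard error of 0.21 (limma, adjusted p = 0.00623). Without the filter on low values, when all 23235 genes enter the fit, the adjusted p of Pan2 was 0.0526. With the factors of the study's scaled means its log2 change was 0.36 and did not pass (limma, adjusted p = 0.229).

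Within each sample the level of Pan3 was 6.55, 10.2 and 6.98 times that of Pan2 in WT oocytes and 1.47, 1.07 and 1.92 times in Pabpn1-null oocytes. Thus Pan3 exceeded Pan2 in all 6 samples, but the excess was smaller in every Pabpn1-null sample than in any WT sample. On the log2 scale the ratio was 2.95 ± 0.34 in WT and 0.53 ± 0.42 in Pabpn1-null oocytes (SD, n = 3), a difference of -2.42. A ratio within a sample is free of the scaling between samples. The exact two-sided permutation test gave p = 0.1, the smallest that 3 against 3 samples allow (adjusted p = 0.4 over the 6 ratios of decay factors computed).

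Parn, the cap-binding deadenylase (chromosome 16, 13538057 to 13668263, minus strand), was nearly constant among the WT samples as deposited (SD 0.132 FPKM). The factors of the study's scaled means differ among these samples (1, 1.42 and 1.31), so that this constancy belongs to the deposited scale. It was at 10.9, 10.6 and 10.8 FPKM in the WT samples and at 20.1, 22.5 and 20.8 FPKM among the Pabpn1-null samples. Each Pabpn1-null sample was at nearly the same multiple of the WT level, and the genotypes did not overlap. The mean rose 1.96-fold, a log2 change of 0.91 with a standard error of 0.15 (limma, adjusted p = 0.00113). With these factors the change of Parn was 0.38 and did not pass (limma, adjusted p = 0.169). The ratio of Parn to Pan2 within a sample differed by 0.02 on the log2 scale between the genotypes and overlapped (exact permutation p = 1), and this difference ranged from -0.10 to 0.22 when 1 sample was left out.

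**Figure D2:**
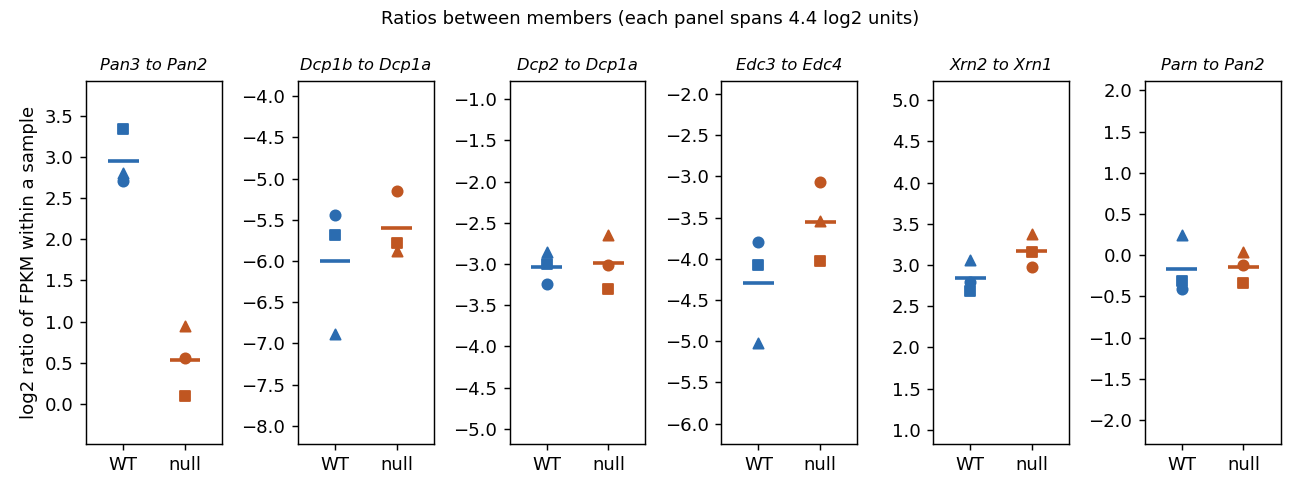
Ratio of 2 decay factors within each sample, as the log2 of their FPKM, for 6 pairs, with the same colours and marker shapes as the plot of levels (WT blue, Pabpn1-null orange; circle, square and triangle for replicates 1, 2 and 3) and a line at each mean (n = 3). The panels share the length of the axis but not its position. As plotted, with nothing added to the levels, only the ratio of Pan3 to Pan2 separates the genotypes, with means of 2.95 in WT and 0.53 in Pabpn1-null oocytes.

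Among the exonucleases, the nuclear Xrn2 (chromosome 2, 146838732 to 146903736, plus strand) was at 19.7, 22.3 and 24.99 FPKM in the WT samples and at 31.9, 34.2 and 33.9 FPKM among the Pabpn1-null samples. The genotypes did not overlap, and the Pabpn1-null samples lay close together. The mean rose 1.49-fold, a log2 change of 0.56 with a standard error of 0.15 (limma, adjusted p = 0.0118). The cytoplasmic Xrn1 (chromosome 9, 95855179 to 95953446, plus strand) was at 2.84, 3.47 and 2.98 FPKM in WT and at 4.04, 3.84 and 3.26 FPKM in Pabpn1-null samples. The genotypes overlapped, and the log2 change of 0.20 did not pass the test (95% interval -0.21 to 0.61, adjusted p = 0.384 from limma). The ratio of Xrn2 to Xrn1 within a sample was 6.43 to 8.37 in WT and 7.90 to 10.4 in Pabpn1-null oocytes. These ranges overlapped (difference 0.32 on the log2 scale, exact permutation p = 0.2, adjusted p = 0.4). With 1 added to both levels the difference was 0.36 (exact permutation p = 0.1, the smallest possible). The genotypes were then apart, but WT replicate 3 and Pabpn1-null replicate 1 nearly coincided. The overlap of the ratios thus depends on this choice.

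In the decapping group only Edc3, a scaffold that binds DCP2 and joins decapping factors into processing bodies, passed the test. Edc3 (chromosome 9, 57556347 to 57600306, plus strand) was at 1.71, 1.49 and 0.660 FPKM in the WT samples and at 2.86, 2.85 and 1.91 FPKM among the Pabpn1-null samples. The genotypes did not overlap, but the lowest Pabpn1-null sample was close to the highest WT sample. The mean rose 1.98-fold, a log2 change of 0.65 with a standard error of 0.24 (limma, adjusted p = 0.0430), and the added 1 makes the fitted change smaller than the ratio of means at this low level. The call was lost without the filter (adjusted p = 0.158), under median-of-ratios scaling and quantile normalization (0.0567 and 0.0865) and when WT replicate 2 or 3 or Pabpn1-null replicate 1 or 2 was left out (0.0606, 0.1002, 0.128 and 0.120). Clk3, a kinase gene on the opposite strand, overlaps Edc3 and was at 20.7, 14.7 and 21.3 FPKM in WT and at 38.7, 39.1 and 32.7 FPKM in Pabpn1-null samples. Strand was not said to be used in counting, so that the reads of Edc3 and Clk3 cannot be told apart where the genes overlap.

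The catalytic subunit Dcp2 was at 4.02, 5.68 and 5.77 FPKM in the WT samples and at 6.00, 5.13 and 7.33 FPKM among the Pabpn1-null samples. The genotypes overlapped, with a log2 change of 0.22 that did not pass the test (95% interval -0.24 to 0.68, adjusted p = 0.405 from limma). Dcp1a, the activating subunit (chromosome 14, 31292751 to 31340242, plus strand), was far more abundant, at 38.2, 45.5 and 42.0 FPKM in WT and at 48.6, 50.8 and 46.04 FPKM in Pabpn1-null samples. The Pabpn1-null samples all lay above the WT samples by a narrow margin, and the log2 change of 0.21 did not pass the test (95% interval -0.10 to 0.52, adjusted p = 0.235 from limma), except when the samples were scaled to the same total FPKM (0.40, adjusted p = 0.0459). Its paralog Dcp1b (chromosome 6, 119125270 to 119171632, plus strand) was the rarest of the 10, at 0.880, 0.884 and 0.355 FPKM in WT and at 1.37, 0.925 and 0.785 FPKM in Pabpn1-null samples. The genotypes overlapped (log2 change 0.25, adjusted p = 0.334), and an estimated 16 to 53 fragments per sample stood behind these values, the fewest of any member. Dcp1b was at 0.0170 to 0.0282 of the level of Dcp1a in Pabpn1-null oocytes and at 0.00847 to 0.0231 in WT oocytes, so that Dcp1a made up nearly all of the DCP1 transcript in both genotypes. The ratios of Dcp1b to Dcp1a, Dcp2 to Dcp1a and Edc3 to Edc4 differed by 0.40, 0.04 and 0.75 on the log2 scale, with overlapping genotypes and exact permutation p of 0.6, 1 and 0.2. With 1 added to both levels these differences were 0.045, 0.0082 and 0.33 (p of 1, 1 and 0.4).

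Edc4, the large scaffold of the decapping complex (chromosome 8, 108404781 to 108418808, plus strand), was at 23.7, 24.9 and 21.3 FPKM in the WT samples and at 24.0, 46.6 and 22.3 FPKM among the Pabpn1-null samples. Pabpn1-null replicate 2 stood far above the other 5 samples, while the other Pabpn1-null samples lay within the WT range. The log2 change was 0.32 with all samples (adjusted p = 0.315 from limma) and -0.01 without Pabpn1-null replicate 2 (adjusted p = 0.979). Nrn1l, a gene on the same strand that overlaps Edc4, was at 194, 119 and 228 FPKM in WT and at 274, 170 and 280 FPKM in Pabpn1-null samples. It was lowest in replicate 2 of each genotype, where Edc4 was highest. The split of reads between these genes is uncertain, and its part in the high sample was not tested.

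The order of the levels differed between the genotypes at its upper end. In WT oocytes Pan3 (97.7 ± 35.2 FPKM, SD, n = 3) was followed by Dcp1a (41.9 ± 3.68 FPKM), then by Edc4 and Xrn2, then by Pan2 and Parn, then by Dcp2, Xrn1, Edc3 and Dcp1b. The ranges of Edc4 and Xrn2, of Pan2 and Parn, and of Edc3 and Dcp1b overlapped, and the other neighbours were apart. In Pabpn1-null oocytes Dcp1a came first (48.5 ± 2.40 FPKM), and Pan3, Xrn2, Edc4, Pan2 and Parn followed with each range overlapping the next, from a mean of 33.8 FPKM down to 21.1 FPKM. The lower part kept the order Dcp2, Xrn1, Edc3 and Dcp1b. Pan3 made up 44.7% of the summed level of the 10 in WT and 16.5% in Pabpn1-null oocytes. Without Pan3 the sum was 121 ± 6.36 FPKM in WT oocytes and 171 ± 21.2 FPKM in Pabpn1-null oocytes (SD, n = 3), and with it 219 ± 40.7 and 205 ± 18.2 FPKM.

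The calls of all the rises, and the direction of 4 of the 10 changes, depended on how the samples were put on a common scale. A factor per sample that leads from the deposited values to the study's own scaled group means moved the median log2 change of all genes from 0.09 to -0.36, and turned the calls over all genes from 3491 higher and 2535 lower into 1177 higher and 4445 lower. With these factors Pan3 remained lower (log2 change -2.00, adjusted p = 2.30e-04), no member was higher, at an unadjusted p under 0.05 as well, and Parn, Pan2, Edc3 and Xrn2 had changes of 0.38, 0.36, 0.31 and 0.02 (adjusted p = 0.169, 0.229, 0.345 and 0.943). The changes of Dcp1a, Dcp2, Edc4 and Xrn1 took the opposite sign at -0.34, -0.26, -0.22 and -0.24, none of them past the threshold. Relative to the median of all genes, the log2 change of Parn stood at 0.81 as deposited and at 0.74 with the factors, that of Pan2 at 0.80 and 0.72, and that of Pan3 at -1.54 and -1.64. A factor per sample shifts the changes of all genes by nearly the same amount. The distance of these 3 from the median was therefore nearly fixed beforehand and lends the rises no support. The side of 0 on which a smaller change fell did not hold.

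**Figure D3:**
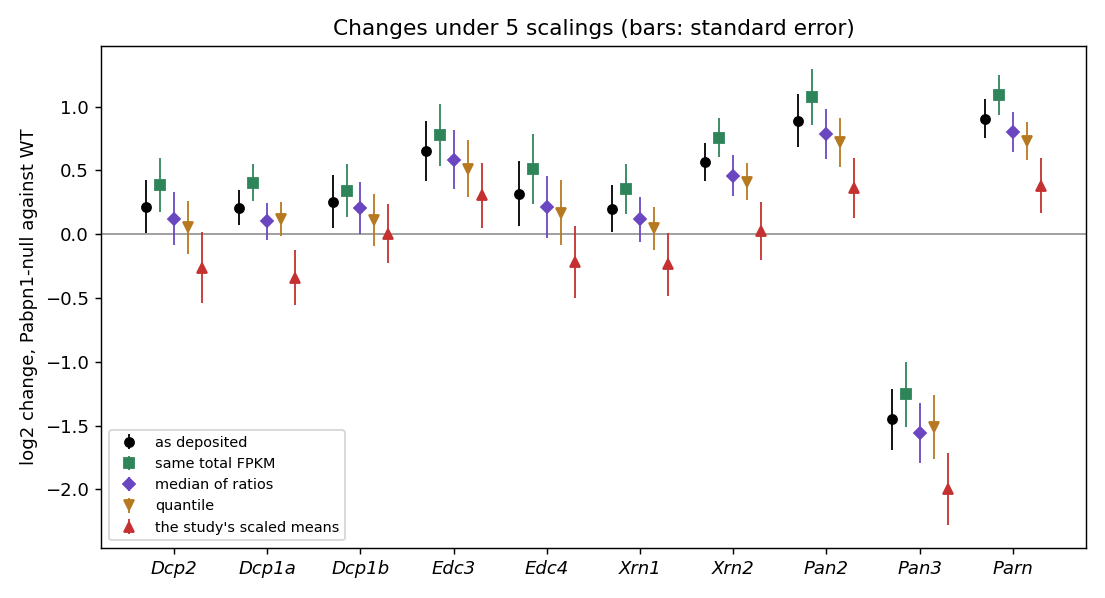
Log2 change of each decay factor in Pabpn1-null against WT oocytes under 5 scalings of the same samples, with the standard error as bars (n = 3 per genotype). Pan3 lies below 0 under all 5 (-2.00 to -1.25), whereas the red triangles, from the study's scaled means, bring Xrn2 to 0.02 and place Dcp2, Dcp1a, Edc4 and Xrn1 below 0.

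Other genes of the same pathways were counted in 3 lists written from general knowledge. Of 19 activators of decapping and enzymes that clear caps, 10 were lower and 1 was higher, with a median log2 change of -0.48. Over all genes 20.2% were lower and the median was 0.09. In the decapping group itself Edc3 rose and the other 4 did not pass the test, and the difference between these lists was not tested. The lowest were Lsm5, Lsm14b and Dcps. Lsm5, a subunit of the LSm rings that bind the 3′ ends of deadenylated mRNA and of U6 snRNA, was at 1049, 896 and 811 FPKM in WT and at 376, 327 and 426 FPKM in Pabpn1-null samples (log2 change -1.29, adjusted p = 1.57e-04 from limma). Every Pabpn1-null sample was well under the WT range.

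The LSm ring that activates decapping has 7 subunits, LSM1 to LSM7, and 6 of the 7 transcripts were lower. All 7 belong to the 19 genes already counted, so this is no separate result. Over all genes 20.2% were lower, a share not matched for level. Besides Lsm5 the lower ones were Lsm3 (660 to 433 FPKM between the means), Lsm2 (257 to 168 FPKM), Lsm7 (303 to 223 FPKM), Lsm1 (137 to 96.9 FPKM) and Lsm6 (82.7 to 53.9 FPKM), which were named after their values were seen. Lsm4 did not differ beyond its spread, at 60.1 and 59.9 FPKM (adjusted p = 0.976). Of these, only LSM1 is particular to the cytoplasmic ring, since the others also form the nuclear ring with LSM8. Lsm5 and Lsm6 passed the test under all 16 alternatives, Lsm3 under all but quantile normalization and Lsm2 under all but the fit without a filter, whereas Lsm1 and Lsm7 lost the call in 8 and 6 of them.

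Lsm14b, a component of the stores of translationally silent mRNA in oocytes, was at 90.5, 121 and 63.1 FPKM in WT and at 32.7, 38.4 and 38.0 FPKM in Pabpn1-null samples (log2 change -1.26, adjusted p = 0.00127 from limma). The WT samples ran in the order of Pan3, with replicate 2 the highest and replicate 3 the lowest, and no Pabpn1-null sample reached them. Dcps, the scavenger that hydrolyses the cap left after decay from the 3′ end, fell from 28.5 ± 4.92 to 13.7 ± 1.22 FPKM (SD, n = 3, log2 change -0.99, adjusted p = 0.00149). Dxo, which removes incomplete caps, was the only one higher, from 13.1 to 19.9 FPKM (log2 change 0.57, adjusted p = 0.0350). Its call was lost without the filter (adjusted p = 0.110), under median-of-ratios, quantile and the study's scaled means, with the replicate number as a block, and when WT replicate 2 or any Pabpn1-null replicate was left out.

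Of 6 nuclear partners of XRN2, 1 was lower and 1 higher, with a median log2 change of 0.05. That is 33.3% called, below the 48.1% of all genes. Nkrf, whose human protein recruits XRN2 to pre-ribosomal RNA, was at 6.14, 10.8 and 7.89 FPKM in WT and at 2.32, 2.84 and 2.79 FPKM in Pabpn1-null samples. All Pabpn1-null samples were far under the lowest WT sample (log2 change -1.32, adjusted p = 0.00112 from limma). Ttf2, whose human protein is a termination factor that releases RNA polymerase II, rose from 4.30 to 6.53 FPKM (log2 change 0.51, adjusted p = 0.0434), and this call was lost when WT replicate 1 or 3 or any Pabpn1-null replicate was left out, with adjusted p up to 0.154. It was lost as well without the filter, at a mean of 5 FPKM and under 3 of the other scalings (adjusted p = 0.0519 to 0.903).

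Of 13 genes of the CCR4-NOT deadenylase, its recruiters and the cytoplasmic poly(A)-binding proteins, 5 were higher and 3 lower, with a median log2 change of 0.26. That is 61.5% called, beside 48.1% of all genes (27.9% higher and 20.2% lower). The higher ones were led by Cnot3 and Cnot2, subunits of the NOT module, at 16.6 to 32.5 and 46.7 to 78.2 FPKM between the means, and by Pabpc4, a poly(A)-binding protein, at 41.4 to 71.0 FPKM (log2 changes 0.89, 0.74 and 0.77, adjusted p = 0.00858, 0.00239 and 0.00214). None of these 3 passed with the factors of the study's scaled means (0.35, 0.19 and 0.22, adjusted p = 0.285, 0.518 and 0.330), and Cnot3 did not without the filter (0.0757). Btg4, the adaptor that brings CCR4-NOT to maternal mRNA during meiotic maturation, was at 2471, 2334 and 2702 FPKM in WT and at 966, 884 and 1065 FPKM in Pabpn1-null samples (log2 change -1.37, adjusted p = 4.75e-05 from limma). It was the most abundant gene of the 3 lists in WT oocytes. The paralogous nucleases Cnot6 and Cnot6l were lower too, from 13.0 to 5.98 and from 62.2 to 35.7 FPKM (log2 changes -0.94 and -0.72, adjusted p = 0.0119 and 0.0325). Cnot6l lost its call when WT replicate 2 or Pabpn1-null replicate 1 or 2 was left out (adjusted p = 0.0529, 0.0596 and 0.111), without the filter (0.187) and at the same total FPKM (0.122), and Cnot6 lost its call without the filter (0.0902). The other genes counted as higher were Cnot7 and Pabpc1l. Cnot7 lost its call without the filter, with the study's scaled means and without Pabpn1-null replicate 2 (0.125, 0.707 and 0.0586), and Pabpc1l under these 3 (0.0953, 0.996 and 0.0708), under median-of-ratios scaling (0.0588) and without WT replicate 1 or 2 (0.0560 and 0.0582).

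**Figure D4:**
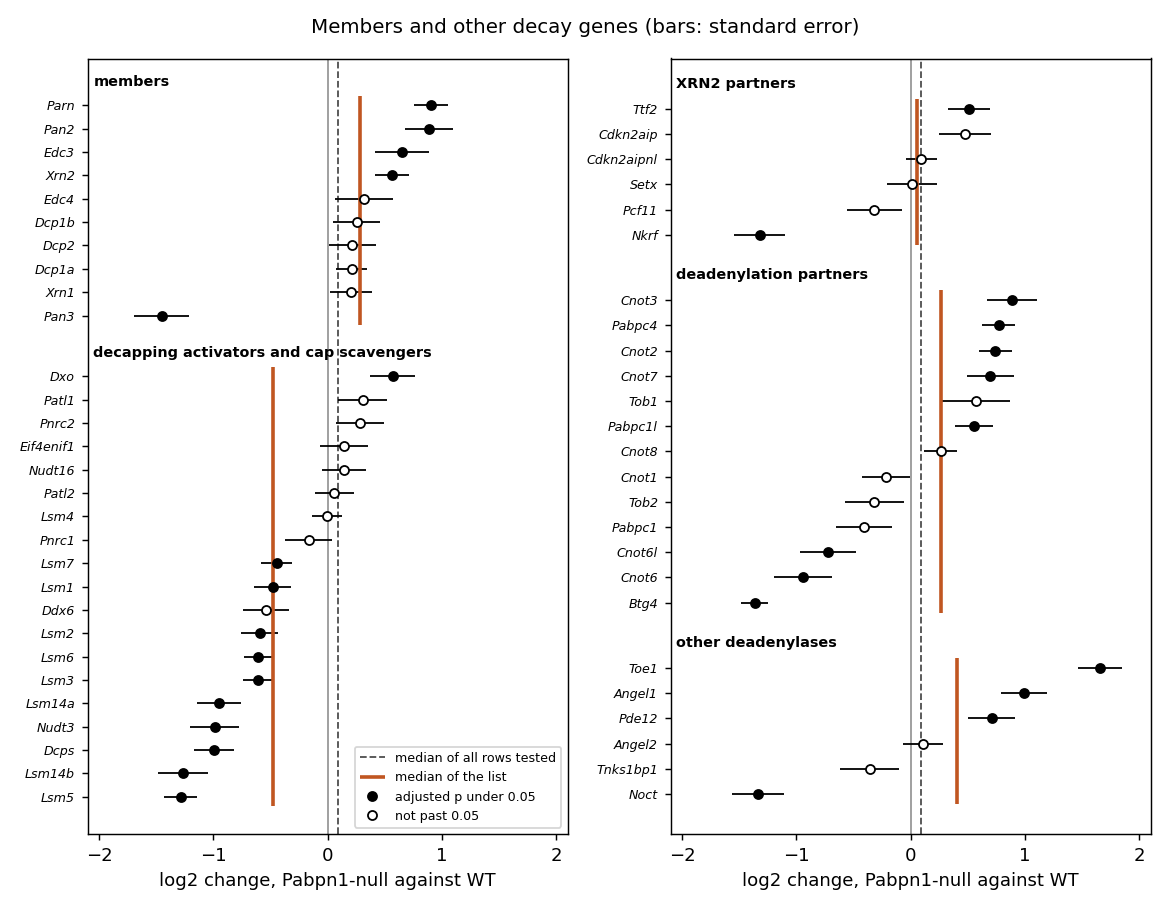
Log2 change of each gene in Pabpn1-null against WT oocytes with its standard error (n = 3 per genotype), with filled circles for an adjusted p under 0.05. Shown are the 10 decay factors, the 3 lists of partners and 6 further genes linked to deadenylation (headed other deadenylases). The dashed line marks the median of all genes tested (0.09) and each orange line the median of a list, which lies at 0.29 for the decay factors and at -0.48 for the activators of decapping and cap scavengers.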

How the data were processed

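The authors aligned trimmed reads to mm9 together with ERCC sequences (TopHat2 2.1.1) and obtained FPKM from the uniquely aligned ones (Cufflinks 2.2.1, guided by UCSC gene models). The deposited values are FPKM with 1 added, which was subtracted here. Per the methods FPKM was further scaled to the spike-in. The deposited values do not carry the scaling of the study's scaled group means, since a factor per sample links them for 2013 of 2014 rows. These factors were 1, 1.42 and 1.31 for the WT samples and 0.833 for each Pabpn1-null sample. Whether they are the spike-in factors is not given in the sources used here. The main fit used the deposited values without them.

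Of 23235 genes, the 12523 with FPKM above 1 in at least 1 sample entered a limma 3.58.1 model of genotype alone (R 4.3.3, log2(FPKM + 1), 3 samples against 3, moderated variances with a trend) and adjusted over all of them by Benjamini-Hochberg with a threshold of 0.05. Ratios were compared with exact permutation tests in SciPy 1.17.1. The limma step was tested on simulated data.

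The table holds no counts. Levels of low genes came close to whole multiples of 1 fragment (within 0.15 for 78.7 to 85.3% of them, where an even spread gives 30%), which gave the approximate depth. No counting interval is given.

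Genes named are the 10 members, Pabpn1, and in each list up to 3 genes in each direction with the largest change past the threshold, besides those said to be named later. The members and lists were chosen with earlier results of these data known. The list of further genes linked to deadenylation was added after the members' values were seen. Coordinates are those of GENCODE vM1 on mm9.

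Alternatives were no filter, a filter at a mean of 5 FPKM, a pseudocount of 0.1, the same total FPKM, median-of-ratios, quantile normalization, factors estimated from the study's scaled means (matching 2013 of 2014 rows held within 0.001), eBayes without trend or robust, the replicate block, and leaving out each sample.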

Additional observations from a re-analysis of the deposited data

How the results depend on the processing

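Pan3 kept its direction and its call under all 16 alternatives (log2 change -2.00 to -1.19). With the factors of the study's scaled means, 1177 genes were higher and 4445 lower, and 0 decay factors were higher. In the same fit the decapping activators had 0 higher and 14 lower, the partners of XRN2 0 higher and 3 lower, and the deadenylation partners 0 higher and 6 lower. That is 73.7%, 50% and 46.2% called, beside 44.9% of all genes. None of these lists had a gene higher at an unadjusted p under 0.05 there. Dcp1a, Dcp2, Edc4 and Xrn1 changed sign to -0.34, -0.26, -0.22 and -0.24. Scaling to the same total FPKM gave 4327 genes higher and 1778 lower, and Dcp1a then passed (0.40, adjusted p = 0.0459 from limma).

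Without the filter, 2 decay factors were higher, and the lists had 0, 0 and 2 genes higher (1, 1 and 5 at an unadjusted p under 0.05), with 1 deadenylation partner lower. Median-of-ratios and quantile normalization each left 0 decapping activators and 0 partners of XRN2 higher (1 and 1, and 0 and 0, at an unadjusted p under 0.05), as a mean of at least 5 FPKM left 0 partners of XRN2 higher (1 unadjusted). Edc3 lost its call under both normalizations (adjusted p = 0.0567 and 0.0865).

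Leaving out 1 sample at a time gave 2631 to 3454 genes higher and 1854 to 2761 lower, and 3 to 4 decay factors higher and 1 lower. The lists had 0 to 1 decapping activators, 0 to 2 partners of XRN2 and 3 to 6 deadenylation partners higher, and 8 to 11, 1, and 2 to 4 lower. The ratio of Pan3 to Pan2 differed by -2.63 to -2.20 on the log2 scale, Dcp1b to Dcp1a by -0.039 to 0.68, Dcp2 to Dcp1a by -0.13 to 0.20 (-0.06 without WT replicate 1), Edc3 to Edc4 by 0.38 to 0.99, Xrn2 to Xrn1 by 0.22 to 0.43, and Parn to Pan2 by -0.10 to 0.22 (-0.05 and -0.07 without WT replicate 2 and Pabpn1-null replicate 3). The log2 change of Edc4 was -0.0070 to 0.51 over these fits, the lowest without Pabpn1-null replicate 2, and the ratio of Dcp1b to Dcp1a was lowest without WT replicate 3. The cause of these changes was not tested.

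Samples with the same replicate number did not deviate together (correlations of -0.01, -0.01 and 0.06). Which samples shared a litter is not given, and so few samples cannot exclude a pairing. With the replicate number as a block, 3478 genes were higher and 2528 lower, 4 decay factors were higher and 1 lower, and 0 decapping activators (1 unadjusted) and 2 partners of XRN2 were higher. With 3 samples a genotype, the 95% intervals of Dcp1a, Dcp2 and Xrn1 reach log2 changes of 0.52, 0.68 and 0.61, so that rises of that size may go unseen, and estimated depth limits Dcp1b and Edc3 most.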

Other observations

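A list of 6 further genes linked to deadenylation was looked at after the values above had been seen. Not all of them are established deadenylases. Of the 6, 3 were higher and 1 lower. That is 66.7% called, beside 48.1% of all genes (27.9% higher and 20.2% lower). Toe1, a nuclear deadenylase that trims small nuclear RNA precursors and is related to PARN, was at 5.31, 4.66 and 3.56 FPKM in WT and at 17.2, 17.7 and 14.0 FPKM in Pabpn1-null samples. The genotypes were wide apart, and the mean was 3.62-fold higher (log2 change 1.66 with a standard error of 0.19, limma, adjusted p = 1.84e-04). Under the factors of the study's scaled means the change of Toe1 was 1.17 (adjusted p = 0.00184), and it passed under each of the other alternatives too.

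Noct, named for its circadian expression and placed by sequence in the family of CCR4-like deadenylases, was at 77.5, 122 and 63.6 FPKM in WT and at 34.9, 27.9 and 36.8 FPKM in Pabpn1-null samples. It fell in every Pabpn1-null sample below the WT range (log2 change -1.33, adjusted p = 0.00126 from limma) and passed under all 16 alternatives. Its WT samples ran in the same order as those of Pan3 and Lsm14b. Angel1 rose from 10.7 to 22.8 FPKM (log2 change 0.99, adjusted p = 0.00314), and Pde12, a mitochondrial deadenylase, from 10.7 to 17.8 FPKM (0.71, adjusted p = 0.0177), but neither passed with these factors (adjusted p = 0.123 and 0.593). Pde12 also lost its call without the filter and when WT replicate 1 or Pabpn1-null replicate 2 was left out (adjusted p = 0.0829, 0.0540 and 0.0678). Angel2 and Tnks1bp1 had log2 changes of 0.11 and -0.36 and did not pass the test.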
